A study of Mus musculus with 2 samples.

Results

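The mitochondrial ribosomal proteins were followed through the cell classes of the mouse ileal crypt. They were chosen by name, as the genes whose symbol begins with Mrpl or Mrps followed by a digit, and 78 of the 31053 genes in the matrices met this rule. Of these, 49 are named for the large subunit (Mrpl) and 29 for the small subunit (Mrps). The cells were live ileal epithelial crypt cells carrying a red label (Tom+), taken from mice of genotype Atoh1CreER-T2;R26RTom, in which tamoxifen switches on a Cre recombinase made where Atoh1, a transcription factor of secretory fate, is active. The mice had received 2 intraperitoneal doses of 1 mg/mL tamoxifen 24 h apart and the cells were taken 12 h after that. There was 1 group, labelled WT, with 2 single-cell RNA-seq libraries, replicate 1 and replicate 2, so all comparisons are between the 12 cell classes the authors assigned within each library. The Cre driver limits what was sampled, since only cells that had recombined, or their progeny, carried the label.

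Mitochondria keep their own ribosome, which translates the few proteins encoded by the mitochondrial genome, all of them subunits of the respiratory chain and the ATP synthase. Its RNA comes from the mitochondrial genome, whereas every one of its proteins is encoded in the nucleus, made by cytosolic ribosomes and imported. Intestinal stem cells and their dividing progeny are known to differ in metabolism from mature secretory cells, and the Paneth cell, which neighbours the stem cell and secretes antimicrobial peptides, is one of the mature secretory types.

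A RefSeq promoter window of build GRCm38.p6 was at hand for 69 of the 78 members. It was searched over the 250 bases before the annotated start, on both strands, for short motifs of factors known to act on genes of mitochondrial function or on housekeeping promoters. The NRF1 motif (the capitals of Mrpl12 below, with any base at the fifth position) occurred in 10 of 69 members (14.5%), against 9.09% of 8617 tested genes and 3.86% of 27025 genes with a window. Of those 10 members 9 were Mrpl genes, and the other was Mrps21. The ETS motif (CCGGAAG) occurred in 24.6% of members, against 15.1% of tested genes and 7.05% of all genes. The YY1 motif (AAGATGGCG) occurred in 2.90% against 1.30% and 0.607%, the E-box (CACGTG) in 7.25% against 8.74% and 6.05%, and the CCAAT box in 36.2% against 36.7% and 34.5%. A ZNF143 motif (the capitals of Mrpl42 below, with any base at the eighth position), added to the search after the windows below had been read, occurred in 4 members, Mrpl24, Mrpl34, Mrpl42 and Mrpl50, which is 5.80% against 2.51% and 0.977%. The windows of Mrpl34 and Mrpl42 were among those read, so this share is no independent measure of enrichment. The 4 windows below are shown because, among members whose mean log2 CPM was 5 or more, these had the smallest p for a difference among the 12 classes. They are written 5′ to 3′ on the strand of the gene, and capitals mark motif matches. The window of Mrpl12 (chr11:120484387-120484636, plus strand) held an NRF1 match at position -81 relative to the start. That of Mrpl42 (chr10:95501950-95502199, minus strand) held a ZNF143 match at -45. That of Mrps5 (chr2:127587176-127587425, plus strand) held none of the 3 motifs marked, and that of Mrpl34 (chr8:71464676-71464925, plus strand) held ZNF143 at -203 and ETS at -37. The starts used here are those of RefSeq. In the GENCODE M21 annotation Mrps5 starts at base 127587222 and Mrpl12 at base 120484613, inside the printed windows. The windows of Mrpl1, Mrpl18, Mrpl23, Mrpl33, Mrpl35, Mrpl36, Mrpl39, Mrpl46, Mrpl47, Mrpl51, Mrps10 and Mrps24 lie wholly inside the gene there. Some matches counted above lie in them, such as NRF1 in Mrpl39, ETS in Mrpl18 and Mrpl51, and YY1 and the E-box in Mrpl36. Matches, or their absence, are uncertain as promoter features in such windows.
Mrpl12: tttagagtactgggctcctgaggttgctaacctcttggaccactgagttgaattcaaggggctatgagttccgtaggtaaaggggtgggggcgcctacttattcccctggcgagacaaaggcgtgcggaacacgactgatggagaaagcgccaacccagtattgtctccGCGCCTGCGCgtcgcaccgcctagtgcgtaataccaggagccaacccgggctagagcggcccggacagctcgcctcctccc
Mrpl42: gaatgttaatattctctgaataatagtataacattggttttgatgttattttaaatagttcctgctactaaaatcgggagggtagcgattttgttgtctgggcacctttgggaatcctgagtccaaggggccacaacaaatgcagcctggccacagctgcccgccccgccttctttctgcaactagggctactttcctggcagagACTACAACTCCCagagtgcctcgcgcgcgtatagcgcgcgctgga
Mrps5: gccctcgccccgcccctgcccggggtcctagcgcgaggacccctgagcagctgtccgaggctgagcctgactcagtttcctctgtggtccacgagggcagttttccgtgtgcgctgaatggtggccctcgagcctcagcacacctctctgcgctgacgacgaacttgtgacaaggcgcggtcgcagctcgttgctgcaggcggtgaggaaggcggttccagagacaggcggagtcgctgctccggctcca
Mrpl34: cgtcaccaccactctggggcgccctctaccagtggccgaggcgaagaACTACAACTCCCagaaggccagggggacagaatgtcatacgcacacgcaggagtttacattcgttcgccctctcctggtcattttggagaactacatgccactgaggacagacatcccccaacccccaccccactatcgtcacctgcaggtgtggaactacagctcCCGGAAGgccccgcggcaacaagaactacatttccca

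The 78 genes lay on 17 chromosomes (GENCODE M21, mm10). A protein-coding gene began on the opposite strand within 1000 bases of the start of 18 members (23.1%), against 6.76% of 21974 protein-coding genes. That background includes genes too low to be tested here, whereas 77 of the 78 members were tested. The share among tested genes was not computed. Such pairs included Mrps12 with Sars2, which encodes the mitochondrial seryl-tRNA synthetase, and Mrpl49 with Fau, which encodes a cytosolic ribosomal protein. Exons of 4 members overlapped another gene on the same strand, Mrpl53 (Gm42688), Mrps24 (Urgcp), Mrps6 (Slc5a3 and Gm49711) and Mrps34 (Nme3), and their counts are uncertain. Exons of 26 members overlapped a gene on the other strand, among them Mrpl12 (Gm16755), Mrpl13 (Mtbp), Mrpl14 (Tmem63b), Mrpl18 (Tcp1), Mrpl36 (Ndufs6), Mrpl47 (Actl6a and Ndufb5), Mrpl49 (Syvn1), Mrps7 (Gga3 and Mif4gd) and Mrps18b (Gm16279), while Mrpl46 and Mrps11 overlapped each other. The sources used here do not say whether counting used strand, so values of these 26 are uncertain to that extent.

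Transcripts were counted as UMIs (unique molecular identifiers). The authors' cell list held 5305 cells and 32656481 UMIs in replicate 1, and 6257 cells and 27014983 UMIs in replicate 2. The median was 5706 and 3503 UMIs per cell, and 12 barcodes were listed in both libraries. Classes held 42 to 2318 cells in replicate 1 and 73 to 1739 in replicate 2, with EC (42 and 83 cells), GOBLET (42 and 84) and EEC-PRE (57 and 73) the smallest. Class names are the authors' and are not spelled out in their table. Summed over a fixed list of stem cell genes such as Lgr5 and Olfm4, ISC held 3346 and 2048 CPM (UMIs scaled to a common total of 1e+06), against 879 and 820.0 CPM in SEC-PRO, the next highest. The other fixed lists were each highest in the class or classes they were made for, except that the GP list was highest in GOBLET and the EEC-PRE list in EC. Summed leukocyte markers reached at most 36.2 CPM (TUFT, replicate 1) and summed stromal, endothelial and blood markers at most 46.3 CPM (EC, replicate 1). With library as a term, p-values measure only how far class differences disagreed between these 2 libraries, pooled over the 12 classes. Separate animals for the libraries are not named by the labels, so whether this holds any spread between animals is unknown. The classes had been assigned from the same expression values.

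The members together made up the largest share of UMIs in ISC and the smallest in PANETH and GOBLET, and the highest 2 and lowest 3 classes were the same in both libraries. In ISC the share was 0.885% and 0.779% of UMIs in replicates 1 and 2, with exact 95% binomial intervals of 0.875 to 0.896% and 0.773 to 0.786%. SEC-PRO followed with 0.685% and 0.620%. Then came ENTERO-PRO (0.620% and 0.610%), GP (0.624% and 0.572%), TUFT (0.593% and 0.591%) and EEC-PRE (0.631% and 0.521%), and the EEC-PRE libraries lay so far apart that they spanned the other 3 classes. NON-EC (0.511% and 0.536%), GOBLET-PRE (0.510% and 0.479%) and EC (0.474% and 0.507%) came next, with GOBLET-PRE and EC overlapping. PANETH-PRE stood at 0.337% and 0.334%, GOBLET at 0.163% and 0.206%, and PANETH at 0.0989% and 0.109%. Intervals cover counting error only and were widest in GOBLET, where members had 252 and 480 UMIs in all. In barcodes with at most 50 UMIs, taken here as free RNA, the share was 0.540% and 0.431%.

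The share of UMIs and the level relative to other genes placed PANETH differently. The TMM factors, which correct each sum for genes that take much of it, were 0.229 and 0.256 in PANETH and 0.657 and 0.696 in GOBLET, against 0.849 to 1.33 in the other classes. On TMM-scaled CPM, the unit of all levels below, members summed to 4319 and 4255 in PANETH, within the range of the other classes. The ISC sums were 7111 and 6086, the highest of the 12 in both libraries, ahead of 5562 and 5311 in ENTERO-PRO and 5356 and 4914 in SEC-PRO. The lowest were 2492 and 2970 in GOBLET. With mitochondrial, cytosolic ribosomal and marker genes left out of the total, the member share was 0.215% and 0.278% in PANETH, against 1.31% and 1.16% in ISC. PANETH cells were also the deepest, at a median of 23375 and 12874 UMIs, against 5825 and 3973 in ISC. After each cell was thinned to 2000 UMIs, a PANETH cell held a mean of 2.16 and 2.57 member UMIs, against 17.2 and 15.5 in an ISC cell.

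**Figure D1:**
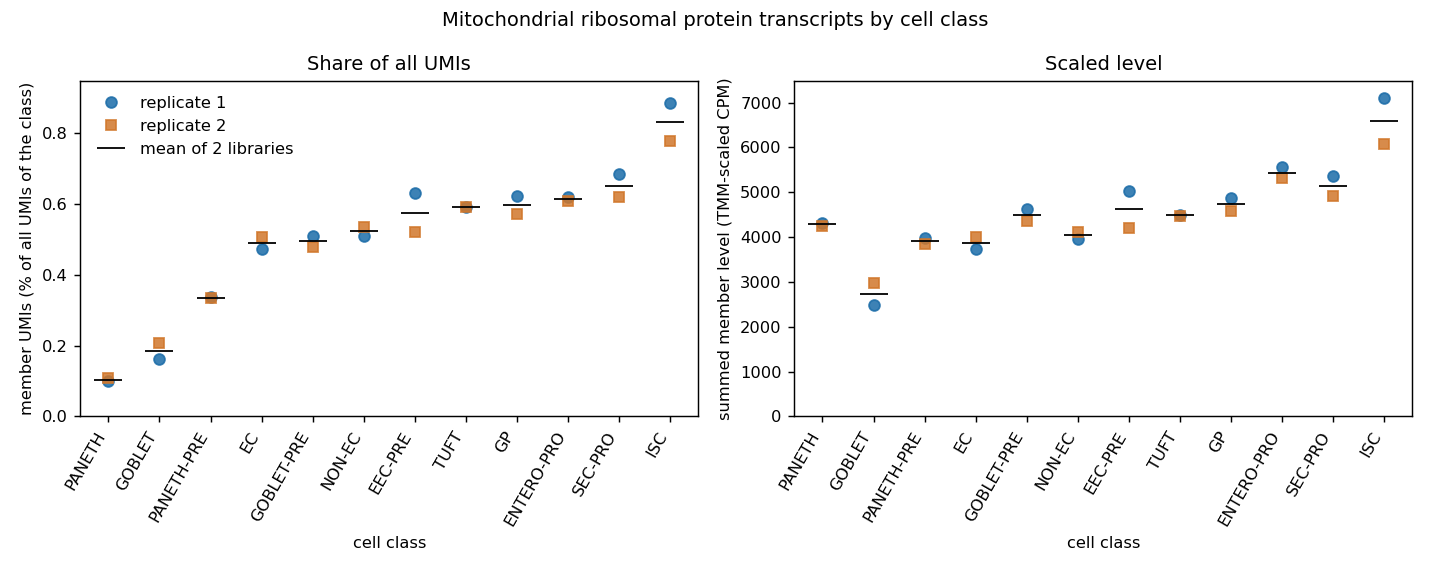
Summed mitochondrial ribosomal protein transcripts by class, with 1 point per library. The left panel gives the percent of UMIs and the right panel the sum of TMM-scaled CPM. ISC is highest in both panels, and PANETH is lowest in the left panel (0.0989% and 0.109%) but not in the right, where GOBLET is lowest (2492 and 2970 CPM).

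The ratio of Mrpl to Mrps UMIs differed between some classes. It averaged 2.12 ± 0.0590 in TUFT, 1.98 ± 0.0167 in ISC, 1.95 ± 0.0232 in SEC-PRO, 1.95 ± 0.0460 in PANETH and 1.62 ± 0.00737 in EC (SD, n = 2 each). TUFT stood above EC and NON-EC (1.72 ± 0.0565) in both libraries, a difference that was not tested. Over the 24 sums the ratio lay between 1.61 and 2.24, with the highest value in GOBLET, replicate 2.

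Member by member, most differed among the classes. The filter on low counts kept 77 of the 78 members. Mrpl53, the member it left out, had 30 UMIs in all listed cells. The F test over the 12 classes (edgeR quasi-likelihood, Benjamini-Hochberg adjusted p under 0.05 over 10994 genes) called 73 of the 77, where 85.4% of all tested genes were called. The members not called were Mrpl58, a peptidyl-tRNA hydrolase that frees stalled mitochondrial ribosomes (adjusted p = 0.051), Mrpl27 (0.0836), Mrpl43 (0.181) and Mrpl10 (0.313). The mean of the 2 libraries was highest in ISC for 50 of the 77, in EEC-PRE for 7, in ENTERO-PRO for 7 and in EC for 5, and it was lowest in GOBLET for 52 and in EC for 13. Both ISC values stood above both values of every other class for 19 members, where this held for 2.77% of tested genes. The 19 were Mrpl2, Mrpl4, Mrpl12, Mrpl13, Mrpl19, Mrpl23, Mrpl28, Mrpl35, Mrpl36, Mrpl38, Mrpl40, Mrpl42, Mrpl46, Mrps6, Mrps15, Mrps18b, Mrps26, Mrps27 and Mrps31. Both GOBLET values stood below all others for 19 members, some of them the same, where this held for 10.3% of tested genes. A few members peaked elsewhere in this sense: Mrpl30 in PANETH, Mrpl14 in GOBLET, Mrpl52 in GOBLET-PRE and Mrps21 in ENTERO-PRO.

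**Figure D2:**
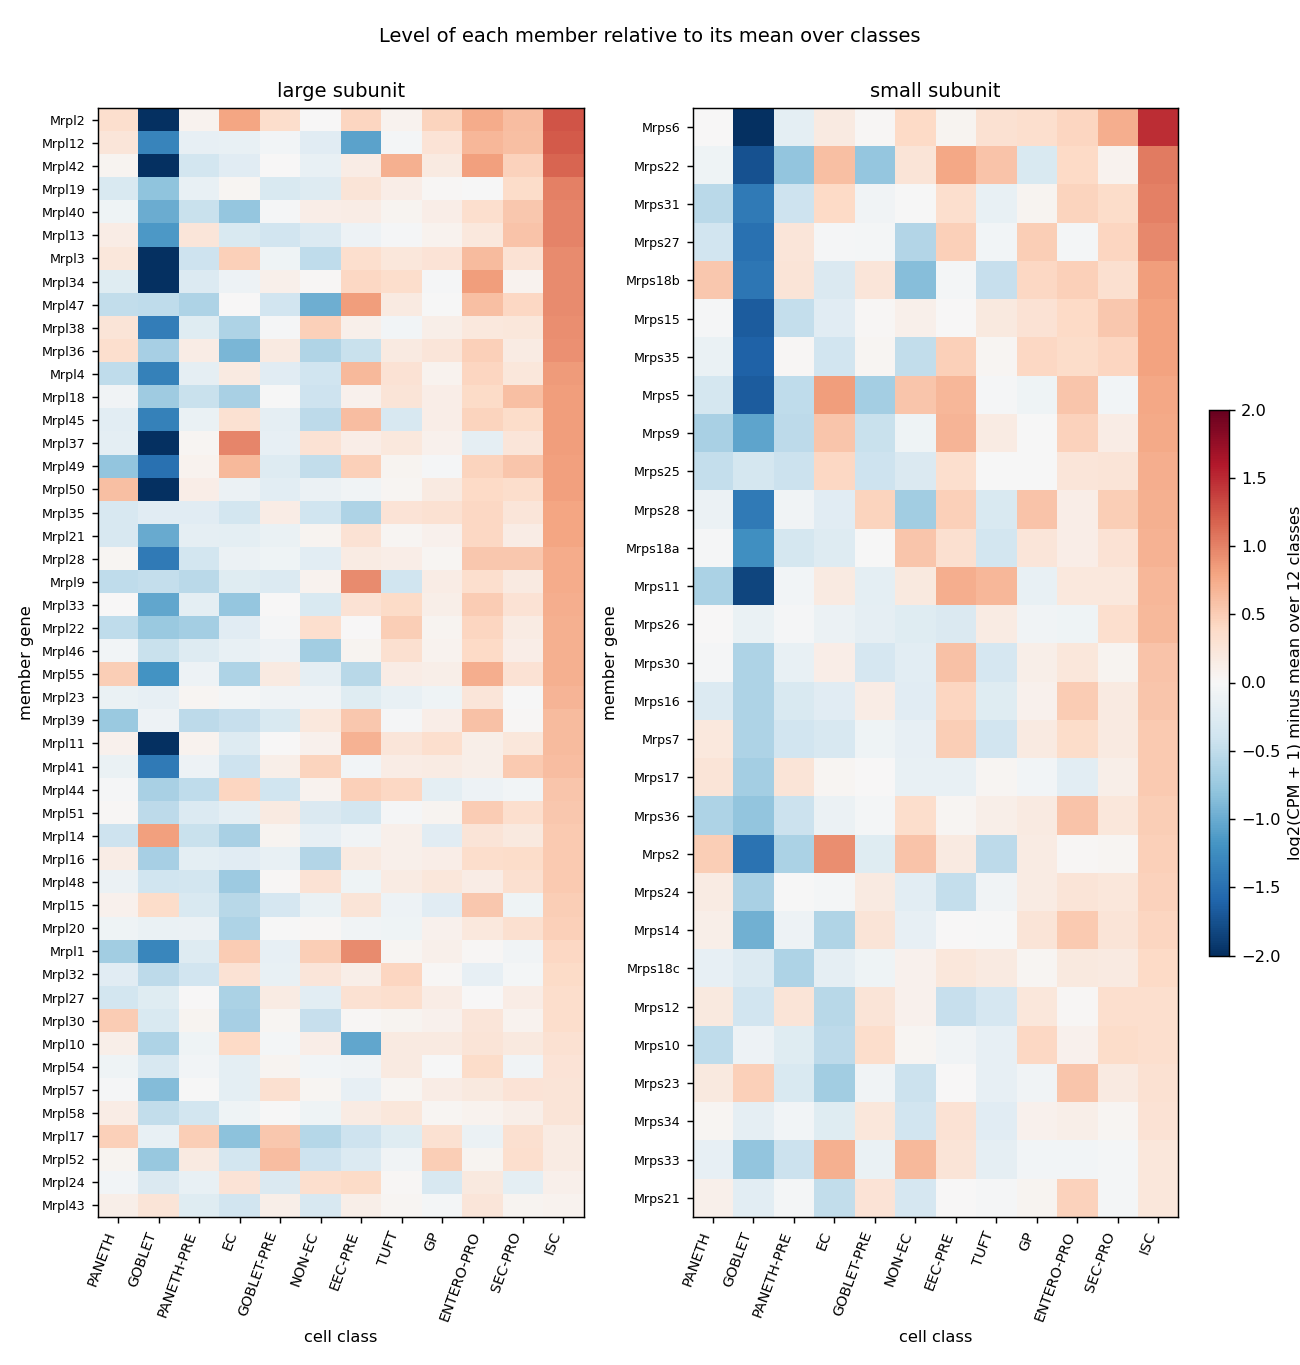
Levels of the 77 members kept (vertical) in the 12 classes (horizontal), as log2(CPM + 1) of the mean of 2 libraries minus the member's mean over classes, with colours limited to -2 and 2. The ISC column is the highest for 50 members and the GOBLET column the lowest for 52.

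Mrpl12, whose product in human cells binds and stimulates the mitochondrial RNA polymerase, had the smallest p of all members (adjusted p = 1.14e-23, edgeR F test over classes). Its levels were 253 and 271 CPM in ISC, 169 and 188 in ENTERO-PRO, 164 and 173 in SEC-PRO, 128 and 142 in GP, 118 and 146 in PANETH and 96.7 and 118 in GOBLET-PRE. They were 91.2 and 111 CPM in EC, 90.7 and 109 in PANETH-PRE, 74.9 and 142 in TUFT, 72.8 and 117 in NON-EC, 37.1 and 68.5 in EEC-PRE and 19.8 and 68.1 in GOBLET. ISC lay above every other class in both libraries, while ENTERO-PRO and SEC-PRO overlapped, as did GP and PANETH. Mrpl42, a large-subunit protein, followed (5.34e-22), with 215 and 169 CPM in ISC, 153 and 149 in ENTERO-PRO, 155 and 125 in TUFT, 120.0 and 116 in SEC-PRO and 9.89 and 12.4 in GOBLET. The other 7 classes lay between 60.8 and 102 CPM.

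Mrps5, whose product is a core protein of the small subunit with a bacterial counterpart, had a second high group of classes (adjusted p = 9.01e-21, edgeR F test). It stood at 115 and 122 CPM in ISC, 109 and 140.3 in EC, 101 and 119 in EEC-PRE, 116 and 86.6 in NON-EC and 90.7 and 113 in ENTERO-PRO, and each of these 5 classes overlapped with the next. It stood at 56.4 and 77.01 CPM in SEC-PRO, 39.8 and 46.1 in GOBLET-PRE and 29.7 and 12.4 in GOBLET. Mrpl34, a large-subunit protein (6.66e-17), had 188 and 132 CPM in ISC, 163 and 131 in ENTERO-PRO, 125 and 95.9 in EEC-PRE, 96.7 and 76.5 in SEC-PRO, 74.0 and 65.2 in PANETH and 0 and 37.1 in GOBLET. ISC and ENTERO-PRO overlapped for Mrpl34. Mrps22, whose average level was below that limit, had 55.0 and 42.1 CPM in ISC and 0 and 12.4 in GOBLET (3.77e-17). The next smallest p belonged to Mrps31 (1.03e-15), Mrpl18 (1.35e-15), Mrpl19 (4.83e-15) and Mrpl13 (8.43e-15).

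Mrpl52, the member with the most UMIs (20819), ran in another order (4.03e-14). It was highest in GOBLET-PRE (390.1 and 429.7 CPM) and GP (368 and 379), followed by SEC-PRO (333 and 340.3) and PANETH-PRE (296 and 309). ISC (285 and 313) overlapped with PANETH-PRE. PANETH (282 and 269) and ENTERO-PRO (278 and 278) lay just below ISC and overlapped with each other. GOBLET held 158 and 155 CPM, although GOBLET-PRE held the most. Mrpl58 ranged only from 43.3 to 84.2 CPM over all 24 sums. Of the other members with many UMIs, Mrps24 had 9631, Mrpl57 7907, Mrps14 7024 and Mrps21 6930 in listed cells.

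**Figure D3:**
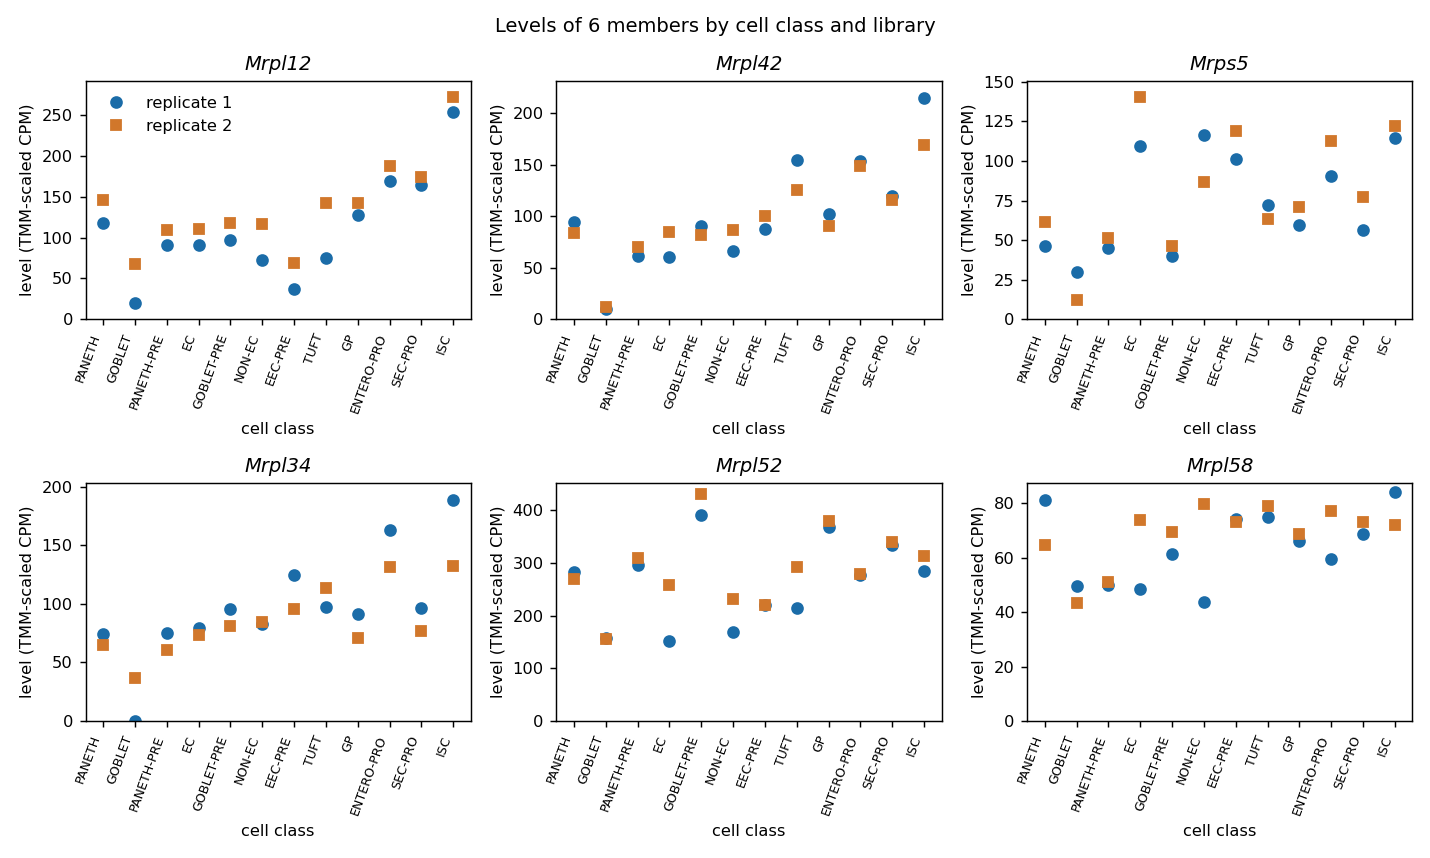
Level of 6 members in each class, in TMM-scaled CPM with 1 point per library. Mrpl12, Mrpl42 and Mrpl34 are highest in ISC, Mrps5 is also high in EC, NON-EC and EEC-PRE, Mrpl52 is highest in GOBLET-PRE (390.1 and 429.7 CPM), and Mrpl58 varies least among the 6.

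Between the progenitor class SEC-PRO and ISC, members were lower in SEC-PRO almost throughout. Of the 77 members 49 fell and none rose, where 34.5% of all tested genes were called, 15.3% lower and 19.2% higher. The median member change was -0.39 on the log2 scale, against 0.02 for all tested genes, and 69 members lay below 0 in both libraries. Mrps22, of the small subunit, had 24.4 and 24.3 CPM in SEC-PRO, against 55.0 and 42.1 CPM in ISC (log2 change -0.96 ± 0.15 SE, adjusted p = 1.98e-07, edgeR quasi-likelihood test as for all such values below). Mrpl34 fell by 0.87 ± 0.11 (4.69e-10), Mrps5 by 0.84 ± 0.11 (3.16e-09) and Mrpl36 by 0.75 ± 0.11 (3.82e-08). For these 4 members both SEC-PRO libraries lay below both ISC libraries. Mrpl36 had 76.6 and 67.0 CPM in SEC-PRO, against 137 and 105 CPM in ISC. Mrpl12 fell by 0.63 ± 0.10 (5.88e-07) and Mrpl42 by 0.69 ± 0.10 (6.24e-08), with the levels given above. The Mrpl set (32 of 48 fell, median -0.44) and the Mrps set (17 of 29, median -0.35) both took part. Without the library term 20 members were called, and with cells thinned to 2000 UMIs 30 were.

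Other mitochondrial lists moved the same way in SEC-PRO against ISC, and so did the cytosolic ribosome. Of the mitoribosome proteins without an Mrp symbol all 5 tested fell: Dap3, Aurkaip1, Ptcd3 and Chchd1 of the small subunit and Gadd45gip1 of the large subunit. Dap3 had 62.0 and 70.9 CPM in SEC-PRO, against 84.2 and 93.3 CPM in ISC (-0.42 ± 0.11, adjusted p = 0.00162). Of 81 nuclear genes of oxidative phosphorylation 64 fell and 1 rose (median -0.37), and 67 of 80 cytosolic ribosomal protein genes fell (median -0.37). Of the 13 protein-coding transcripts of the mitochondrial genome 7 fell (median -0.31). Translation factors fell in 6 of 14 cases, assembly and rRNA modification factors in 9 of 27, and genes of mitochondrial DNA maintenance and transcription in 8 of 14. Tufm, the mitochondrial elongation factor Tu, fell by 0.53 ± 0.12 (1.29e-04). Tfam, whose product packages mitochondrial DNA and takes part in its transcription, had 50.01 and 48.4 CPM in SEC-PRO, against 98.2 and 72.8 CPM in ISC (-0.77 ± 0.12, 1.99e-07). Import genes rose in 3 and fell in 14 of 28, and chaperones and proteases rose in 2 and fell in 7 of 12. Of 9 regulators 3 fell, which were Myc, Ppargc1b and Esrra. Myc, a growth-promoting transcription factor, had 12.2 and 7.42 CPM in SEC-PRO, against 37.9 and 22.9 CPM in ISC (-1.58 ± 0.19, 1.27e-10).

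Cell cycle genes moved in the opposite direction. Of 16 G2/M genes 15 rose in SEC-PRO against ISC (median 0.56), and they summed to 2761 and 2368 CPM in SEC-PRO, against 1653 and 1569 CPM in ISC. In the other 10 classes the G2/M sum was at most 423 CPM. The part of the cell cycle, of cell depth and of class size in the member changes was not tested, here or in the comparisons that follow.

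**Figure D4:**
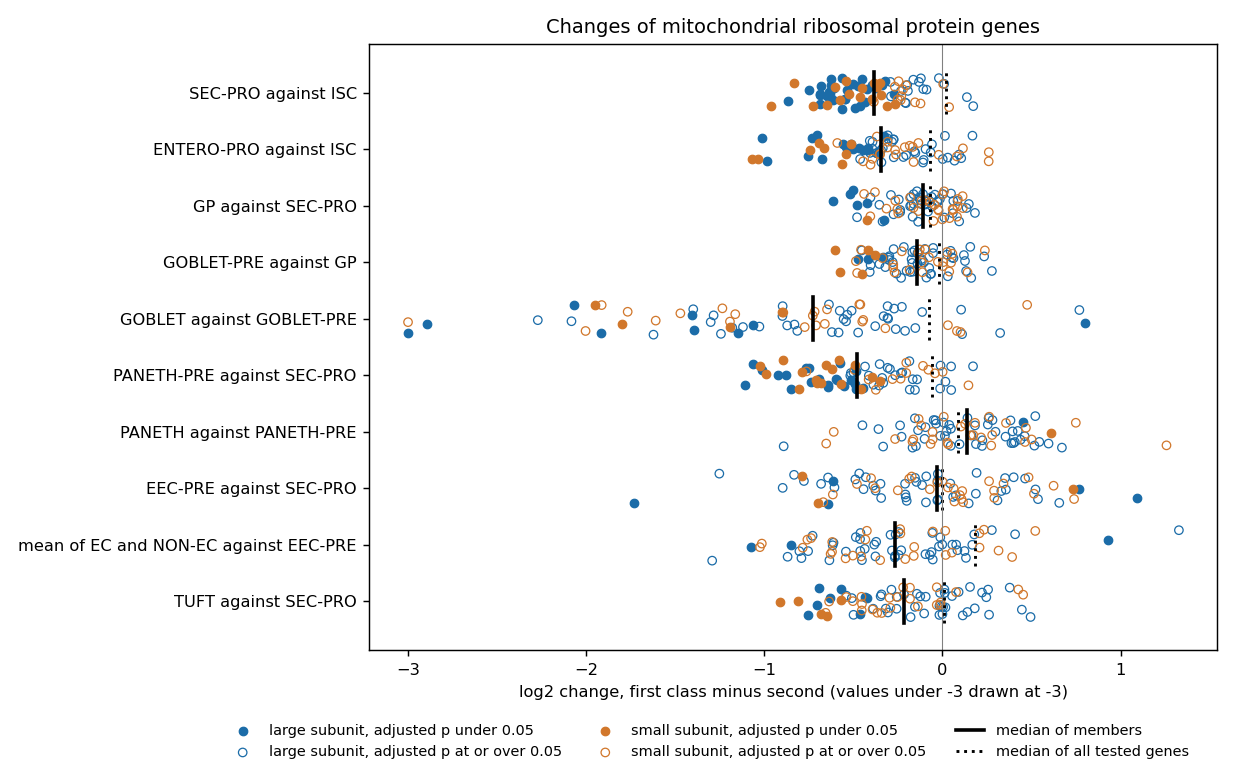
Log2 change of each member in the 10 comparisons between classes, with 1 dot per member. Filled dots have an adjusted p under 0.05 (edgeR), bars mark medians, and values under -3 are drawn at -3. SEC-PRO against ISC and PANETH-PRE against SEC-PRO hold the most filled dots (49 and 36), all below 0.

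ENTERO-PRO, the class with enterocyte markers, was compared with the same ISC sums. Of the 77 members 24 fell and none rose, where 37.0% of tested genes were called, 18.4% lower and 18.6% higher. The members' share called was below that background, though above it for falls alone. The median was -0.34, against -0.07 for all tested genes. Mrps6, of the small subunit, had 19.8 and 14.3 CPM in ENTERO-PRO, against 40.7 and 32.0 CPM in ISC (-1.07 ± 0.30, adjusted p = 0.00331, edgeR), though its exons overlap Slc5a3. Mrps27 had 12.8 and 17.7 CPM in ENTERO-PRO, against 29.3 and 33.8 CPM in ISC (-1.04 ± 0.29, 0.00254). Mrpl19 had 29.8 and 55.2 CPM in ENTERO-PRO, against 79.7 and 94.2 CPM in ISC (-1.01 ± 0.19, 1.20e-05). For each of these 3 the classes did not overlap. Mrpl37 fell by 0.98 ± 0.29 (0.00381), a value that was -0.55 without replicate 1 and -1.62 without replicate 2. Mrpl12 fell by 0.56 ± 0.13 (2.15e-04). With cells thinned to 2000 UMIs 8 members were called, and Mrps6, Mrps27 and Mrpl37 were not among them; without the library term 11 were.

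In ENTERO-PRO the nuclear genes of the respiratory chain moved the other way from the mitoribosome. Of 81 oxidative phosphorylation genes 29 rose and none fell (median 0.18), and mt-Co1, mt-Nd4l and mt-Nd5 rose among the 13 mitochondrial transcripts. The mitoribosome proteins Ptcd3, Gadd45gip1 and Chchd1 fell, as did 73 of 80 cytosolic ribosomal protein genes (median -0.48). The translation factors Mrrf and Tsfm fell, 6 of 27 assembly factors fell, and 6 of 14 genes of mitochondrial DNA maintenance and transcription fell, Tfam by 0.86. Of 16 tRNA synthetases 1 rose and 5 fell, chaperones and proteases fell in 7 of 12 cases and import genes in 10 of 28. Among 9 regulators 2 rose and 4 fell. Ppargc1a, a coactivator of mitochondrial genes, had 12.8 and 19.9 CPM in ENTERO-PRO, against 7.38 and 5.61 CPM in ISC (1.41 ± 0.42, adjusted p = 0.00459, edgeR). Myc had 5.67 and 3.31 CPM in ENTERO-PRO, against 37.9 and 22.9 CPM in ISC (-2.73 ± 0.43, 1.90e-07). Gabpa, an ETS-family factor, fell by 0.94 (0.0288). Neither Nrf1 nor Polrmt, the mitochondrial RNA polymerase, was called in any of the 10 comparisons. All 16 G2/M genes fell (median -3.12).

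**Figure D5:**
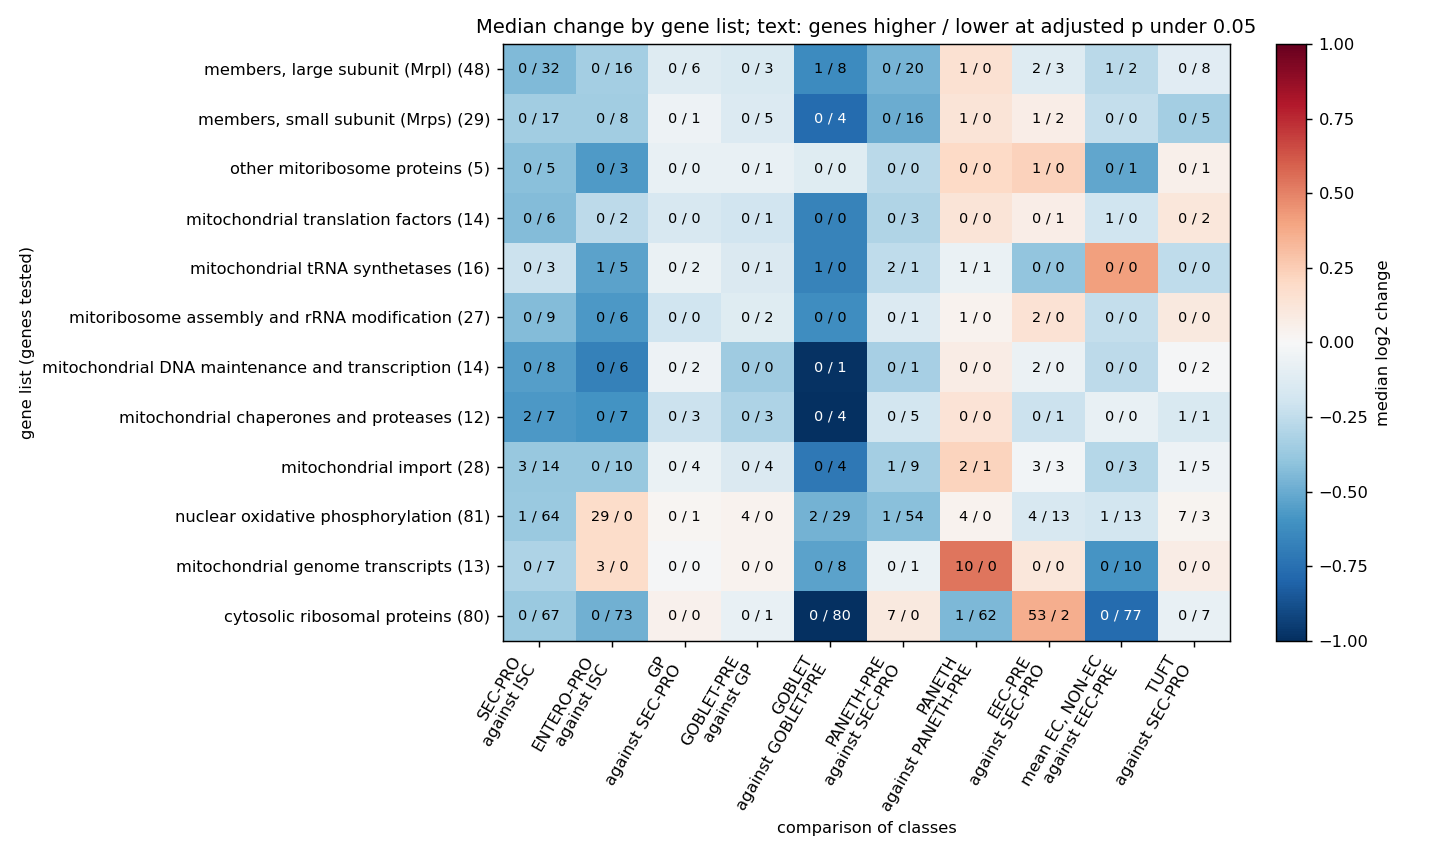
Median log2 change of each gene list in the 10 comparisons, with the number of genes called higher and lower written beside it. In ENTERO-PRO against ISC the members' median is -0.34 while that of nuclear oxidative phosphorylation genes is 0.18.

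Along the classes with goblet markers, members were compared in 3 steps, and in each of them more members fell than rose. GP was compared with SEC-PRO, whose sums also serve as the baseline of the PANETH-PRE, EEC-PRE and TUFT comparisons. In GP 7 members fell and none rose, where 17.1% of tested genes were called, 12.7% lower and 4.38% higher, so the members' share was below that background. The median was -0.11, against -0.07 for all tested genes. Mrpl49 had 19.8 and 17.8 CPM in GP, against 33.7 and 23.3 CPM in SEC-PRO (-0.61 ± 0.18, adjusted p = 0.00865, edgeR; -0.37 without replicate 1). Mrpl28 had 73.9 and 77.6 CPM in GP, against 111 and 105 CPM in SEC-PRO (-0.52 ± 0.12, 4.03e-04). Mrpl13 had 55.6 and 42.3 CPM in GP, against 69.8 and 69.8 CPM in SEC-PRO (-0.50 ± 0.14, 0.00479; -0.32 without replicate 2). Both GP libraries lay below both SEC-PRO libraries for these 3 large-subunit members. Mrpl18 fell by 0.48 ± 0.12 (0.00116) and Mrpl12 by 0.33 ± 0.11 (0.027), and Mrps26 and Mrpl14 each fell by 0.42 (-0.20 and -0.24 without replicate 1). Without the library term no member was called (7 had an unadjusted p under 0.05), and DESeq2 called 1. Of the other lists, nuclear oxidative phosphorylation had 1 gene that fell (Ndufa5), the cytosolic ribosomal proteins and the mitochondrial transcripts had none called, and all 16 G2/M genes fell (median -4.36). Mgme1 and Tfam fell, Tfam to 33.3 and 28.8 CPM in GP, against 50.01 and 48.4 CPM in SEC-PRO (-0.66 ± 0.15, 3.92e-04).

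In GOBLET-PRE against GP, 8 members fell and none rose, where 9.39% of tested genes were called, 4.48% lower and 4.90% higher, and 50 members lay below 0 in both libraries. The median was -0.14, against -0.02 for all tested genes. Mrps5 had 39.8 and 46.1 CPM in GOBLET-PRE, against 59.4 and 71.1 CPM in GP (-0.60 ± 0.12, adjusted p = 3.23e-04, edgeR). Mrps27 had 13.8 and 16.6 CPM in GOBLET-PRE, against 21.3 and 23.6 CPM in GP (-0.57 ± 0.17, 0.022). Both classes stood clear of each other for these small-subunit members. Mrpl13 fell by 0.47 ± 0.14 (0.0168), Mrps9 by 0.45 ± 0.14 (0.0316) and Mrpl12 by 0.34 ± 0.11 (0.0363), and the others that fell were Mrpl9, Mrps25 and Mrps35. Mrpl52 held 390.1 and 429.7 CPM in GOBLET-PRE, against 368 and 379 CPM in GP, and did not pass the test. Ptcd3 fell too, with 11.1 and 15.7 CPM in GOBLET-PRE, against 22.1 and 20.7 CPM in GP (-0.74 ± 0.19, 0.00415), as did Tufm, while 4 oxidative phosphorylation genes rose and none fell. Of the G2/M genes 5 fell. Without the library term no member was called (5 had an unadjusted p under 0.05), and DESeq2 called 1.

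GOBLET, with 42 and 84 cells, had the lowest member levels and the widest errors. Against GOBLET-PRE 12 members fell and 1 rose, where 12.1% of tested genes were called, 3.90% lower and 8.21% higher. The median was -0.73, against -0.08 for all tested genes, and 59 members lay below 0 in both libraries. In GOBLET 23 of the 78 members had at most 3 UMIs over both libraries. Mrpl2, of the large subunit, had 0 UMIs in both GOBLET libraries, against 44.6 and 40.0 CPM in GOBLET-PRE (898 UMIs), which makes it at least 3.80-fold lower, taking 3 counts over the group as the limit of a count of 0 (adjusted p = 1.63e-04, edgeR). Mrpl42 had 9.89 and 12.4 CPM in GOBLET, against 90.1 and 81.6 CPM in GOBLET-PRE (-2.89 ± 0.56, 5.32e-05). Mrpl52 had 158 and 155 CPM in GOBLET, against 390.1 and 429.7 CPM in GOBLET-PRE (-1.40 ± 0.21, 1.45e-07). Neither overlapped between the classes. Mrpl34 had 0 and 37.1 CPM in GOBLET, against 95.6 and 81.2 CPM in GOBLET-PRE (-1.92 ± 0.48, 0.00235; -1.11 without replicate 1). Mrpl11 had 0 and 18.6 CPM in GOBLET, against 48.9 and 47.0 CPM in GOBLET-PRE (-2.07 ± 0.65, 0.0212; -1.31 without replicate 1). Mrps18b fell by 1.95 ± 0.64 (0.0312; -0.996 without replicate 2) and Mrpl12 by 1.15 ± 0.37 (0.0245; -2.24 without replicate 2), and Mrps14, Mrps15, Mrps24, Mrpl28 and Mrpl57 were the others that fell.

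Mrpl14, of the large subunit, went the other way in GOBLET. It had 138 and 136 CPM there, against 82.2 and 78.3 CPM in GOBLET-PRE (0.80 ± 0.28, adjusted p = 0.0443, edgeR), with no overlap between the classes, but it did not pass in any of the 7 alternatives with a test. Under TMM over all genes 23 members were called, and under thinning 7. All 80 cytosolic ribosomal protein genes fell in the same comparison (median -1.49), as did 29 of 81 oxidative phosphorylation genes, of which 2 rose (median -0.47), and 8 of 13 mitochondrial transcripts (median -0.53). None of the 5 other mitoribosome proteins and none of the G2/M genes was called. The median of all genes, -0.08 here, was -0.43 under TMM over all genes and -0.25 under DESeq2 size factors, so the size of the member changes in GOBLET depends on the scaling.

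PANETH-PRE, which carried Paneth markers, was lower than SEC-PRO for many members. Of the 77 members 36 fell and none rose, where 27.1% of tested genes were called, 15.2% lower and 11.9% higher. The median was -0.48, against -0.06 for all tested genes, and 65 members lay below 0 in both libraries. Mrpl47 had 11.1 and 13.0 CPM in PANETH-PRE, against 28.5 and 22.8 CPM in SEC-PRO (-1.11 ± 0.27, adjusted p = 8.18e-04, edgeR). Mrpl18 had 86.5 and 57.7 CPM in PANETH-PRE, against 165 and 136 CPM in SEC-PRO (-1.06 ± 0.14, 2.46e-09). Mrps15 had 43.6 and 32.4 CPM in PANETH-PRE, against 84.7 and 70.4 CPM in SEC-PRO (-1.03 ± 0.17, 7.70e-07). These 3 and Mrpl40 (-1.01 ± 0.21, 7.66e-05) did not overlap between the classes. Mrpl12 fell by 0.77 ± 0.13 (1.43e-06). The Mrps set fell in 16 of 29 cases and the Mrpl set in 20 of 48. Thinning left 14 members called, and 19 were called without the library term. Of nuclear oxidative phosphorylation genes 54 fell and 1 rose (median -0.42), whereas 7 cytosolic ribosomal protein genes rose and none fell (median 0.10). Among mitochondrial transcripts only mt-Nd6 was called, lower. Of the 5 other mitoribosome proteins none was called (median -0.27). The translation factors Mtif3, Tufm and Tsfm fell, as did all 16 G2/M genes (median -4.47).

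On TMM-scaled levels the step to PANETH showed no further fall, whereas the share of UMIs fell. That share was 0.337% and 0.334% in PANETH-PRE, against 0.0989% and 0.109% in PANETH. With mitochondrial, cytosolic ribosomal and marker genes left out of the total it went from 0.648% and 0.630% to 0.215% and 0.278%. Thinned cells held a mean of 7.80 and 7.35 member UMIs in PANETH-PRE, against 2.16 and 2.57 in PANETH. Against PANETH-PRE 2 members rose and none fell, where 8.10% of tested genes were called, 5.31% higher and 2.78% lower, so the members' share did not exceed the background. The median was 0.14, against 0.09 for all tested genes, and 39 members lay above 0 and 16 below 0 in both libraries. Mrps7, of the small subunit, had 53.0 and 68.3 CPM in PANETH, against 31.2 and 49.0 CPM in PANETH-PRE (0.61 ± 0.20, adjusted p = 0.0423, edgeR). It did not pass in any of the 7 alternatives with a test. Mrpl30 had 145 and 157 CPM in PANETH, against 122 and 100.2 CPM in PANETH-PRE (0.45 ± 0.14, 0.0245; 0.25 without replicate 2). PANETH lay above PANETH-PRE in every library for both members, for Mrps7 by a small margin. Mrpl12 had 118 and 146 CPM in PANETH, against 90.7 and 109 CPM in PANETH-PRE, and did not pass (0.41 ± 0.15, 0.0818). No member was called under TMM over all genes, without the library term, with thinning or without the 5% of cells with the most UMIs. Here 10 of 13 mitochondrial transcripts rose (median 0.53), 62 of 80 cytosolic ribosomal protein genes fell and 1 rose (median -0.45), and 4 oxidative phosphorylation genes rose (median 0.03). Of the G2/M genes 5 rose.

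In the enteroendocrine branch few members were called, and those went both ways. EEC-PRE, whose fixed marker list summed higher in EC, was compared with SEC-PRO. In EEC-PRE 3 members rose and 5 fell, where 23.3% of tested genes were called, 12.7% higher and 10.6% lower. The members' share was thus below that background in both directions. The median was -0.03, against 0.00 for all tested genes, and it changed sign under thinning (0.02). Mrpl1, of the large subunit, had 70.9 and 54.8 CPM in EEC-PRE, against 27.1 and 33.5 CPM in SEC-PRO (1.09 ± 0.32, adjusted p = 0.00615, edgeR; 0.70 without replicate 1). Mrpl9 had 81.0 and 68.5 CPM in EEC-PRE, against 50.2 and 37.1 CPM in SEC-PRO (0.77 ± 0.27, 0.029). Mrps5 had 101 and 119 CPM in EEC-PRE, against 56.4 and 77.01 CPM in SEC-PRO (0.73 ± 0.23, 0.0126). None of these 3 overlapped between the classes, though none passed after thinning. Mrpl12 fell most of all members, with 37.1 and 68.5 CPM in EEC-PRE, against 164 and 173 CPM in SEC-PRO (-1.73 ± 0.26, 7.81e-08), and it passed in all 7 alternatives with a test. Mrps12 fell by 0.79 ± 0.23 (0.00758), Mrps24 by 0.70 ± 0.21 (0.00762), Mrpl52 by 0.61 ± 0.16 (0.00169) and Mrpl51 by 0.65 ± 0.22 (0.0243; -1.15 without replicate 1 and -0.41 without replicate 2). Under TMM over all genes 2 members rose and 11 fell. Cytosolic ribosomal protein genes rose in 53 of 80 cases and fell in 2 (median 0.37), and oxidative phosphorylation genes rose in 4 and fell in 13 of 81 cases (median -0.16). Gadd45gip1 had 213 and 174 CPM in EEC-PRE, against 90.5 and 92.1 CPM in SEC-PRO (1.10 ± 0.20, 6.95e-06). All 16 G2/M genes fell (median -3.89).

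EC and NON-EC, the classes with serotonin and peptide hormone markers, were averaged and compared with EEC-PRE. There 1 member rose and 2 fell, where 9.98% of tested genes were called, 5.86% higher and 4.12% lower. The members' share was again below that background. The median was -0.27, against 0.18 for all tested genes, but it was -0.05 without replicate 1 and -0.51 without replicate 2. Mrpl12 had 82.0 and 114 CPM in the mean of EC and NON-EC, against 37.1 and 68.5 CPM in EEC-PRE (0.93 ± 0.31, adjusted p = 0.0363, edgeR), and lost the call under both other scalings. Under TMM over all genes, under DESeq2 size factors and with DESeq2 itself no member rose and 5 fell. Mrpl9 had 44.2 and 28.6 CPM in the mean of EC and NON-EC, against 81.0 and 68.5 CPM in EEC-PRE (-1.08 ± 0.34, 0.025). Mrpl33 had 59.8 and 48.6 CPM in the mean of EC and NON-EC, against 128 and 63.9 CPM in EEC-PRE (-0.85 ± 0.28, 0.0369; -0.39 without replicate 1). None of the 3 overlapped between the groups. Gadd45gip1, which had risen in EEC-PRE, fell here. It had 77.1 and 92.5 CPM in the mean of EC and NON-EC, against 213 and 174 CPM in EEC-PRE (-1.18 ± 0.23, 8.92e-05). Also lower were 77 of 80 cytosolic ribosomal protein genes (median -0.77) and 10 of 13 mitochondrial transcripts (median -0.59). Of 81 oxidative phosphorylation genes 13 fell and 1 rose (median -0.18). No G2/M gene was called.

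TUFT, the class highest for the fixed list that holds Dclk1 and Trpm5, was also set against SEC-PRO. In it 13 members fell and none rose, where 26.9% of tested genes were called, 13.7% lower and 13.2% higher. The members' share called was below that background, though a little above it for falls alone. The median was -0.22, against 0.01 for all tested genes, and 38 members lay below 0 and 12 above 0 in both libraries. Mrps18b had 22.5 and 30.8 CPM in TUFT, against 38.8 and 54.0 CPM in SEC-PRO (-0.81 ± 0.25, adjusted p = 0.00938, edgeR). Mrpl45 had 18.7 and 28.9 CPM in TUFT, against 34.5 and 43.7 CPM in SEC-PRO (-0.75 ± 0.28, 0.0367). Both stood lower in TUFT without overlap. Mrps28 had 20.0 and 17.3 CPM in TUFT, against 48.3 and 17.9 CPM in SEC-PRO (-0.91 ± 0.30, 0.0151), so that the libraries of replicate 2 were nearly equal, and its change was -0.05 without replicate 1. Mrpl12 fell by 0.71 ± 0.16 (1.88e-04), a value that was -0.28 without replicate 1 and -1.12 without replicate 2. Mrps18a fell by 0.68 ± 0.23 (0.0183), and the others that fell were Mrpl9, Mrpl13, Mrpl17, Mrpl20, Mrpl28, Mrpl52, Mrps7 and Mrps12. Without replicate 1 the changes of Mrpl9, Mrpl13, Mrpl20, Mrpl28 and Mrpl52 lay between -0.10 and -0.35. Without the library term 3 members were called, with thinning 6 and with DESeq2 8. Oxidative phosphorylation genes rose in 7 and fell in 3 cases (median 0.02), cytosolic ribosomal protein genes fell in 7 of 80 cases (median -0.08), Gadd45gip1, Tufm, Tsfm, Mgme1 and Tfam fell, and all 16 G2/M genes fell (median -2.87).

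Some members share a name more than a place in the ribosome. Mrps18a, Mrps18b and Mrps18c are homologues of the same bacterial small-subunit protein, and Mrps18a sits in the large subunit of the mammalian ribosome. Mrps18a fell in SEC-PRO (-0.38 ± 0.12, adjusted p = 0.0102, edgeR) and in ENTERO-PRO (-0.56 ± 0.19, 0.0125) against ISC. Mrps18b fell in SEC-PRO (-0.52 ± 0.12, 3.84e-04; -0.31 without replicate 1) and did not pass in ENTERO-PRO (-0.35, 0.125). Mrps18c passed in neither (-0.20 ± 0.13, 0.234, and -0.17, 0.527). In PANETH-PRE against SEC-PRO the order was another: Mrps18c had 31.8 and 38.9 CPM in PANETH-PRE, against 69.6 and 54.2 CPM in SEC-PRO (-0.81 ± 0.19, 5.13e-04; -0.47 without replicate 1), and Mrps18a fell by 0.65 ± 0.18 (0.00279). Mrps18b had 40.8 and 48.3 CPM in PANETH-PRE, against 38.8 and 54.0 CPM in SEC-PRO, and did not pass (-0.04 ± 0.17, 0.901). The differences among the 3 homologues were not themselves tested. Across the 12 classes Mrps18b was highest in ISC (65.7 and 67.3 CPM) and lowest in NON-EC (16.6 and 23.4) and GOBLET (19.8 and 6.19), with 53.9 and 54.6 CPM in PANETH.

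Mrps36, named as a ribosomal protein but now known as a subunit of the 2-oxoglutarate dehydrogenase complex, differed among classes (adjusted p = 1.31e-08, edgeR F test). It had 102 and 73.9 CPM in ENTERO-PRO, 92.4 and 73.6 in ISC, 76.4 and 61.9 in SEC-PRO, 40.2 and 46.1 in PANETH-PRE and 37.4 and 38.7 in PANETH. It did not pass in SEC-PRO (-0.25 ± 0.12, 0.0884) or ENTERO-PRO (0.08 ± 0.16, 0.733) against ISC, and it fell in PANETH-PRE against SEC-PRO (-0.68 ± 0.16, 6.68e-04; -0.42 without replicate 1).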

How the data were processed

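The libraries were 10x Genomics 3′ libraries of live Tom+ ileal crypt cells, per the labels' protocols. Cell Ranger 3.0.2, STAR and build mm10 were used upstream, per the submitters' processing notes. Per the file headers, the deposited values are raw UMI counts for each gene and barcode, without a filter on cells. A deposited table lists the authors' cells with their class, UMI and gene counts and the percent of mitochondrial UMIs. The sources used here do not say how classes were assigned or doublets treated. No doublet caller was run, and leaving out the 5% of cells with the most UMIs was an alternative.

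Counts of listed cells were added up per class and library (24 sums) and tested in R 4.3.3 with edgeR 4.0.16. The quasi-likelihood fit was robust, with class and library as terms, and left 11 residual degrees of freedom. The median biological coefficient of variation was 0.0641. The function filterByExpr kept 10994 genes. Genes whose average log2 CPM was 6 or more gave the TMM factors, and a prior count of 2 was used for log2 levels. Benjamini-Hochberg adjustment ran over all genes kept, with a threshold of 0.05. The library term pairs classes of the same library: differences between the libraries had a median correlation of 0.297 (0.0551 to 0.776) over 66 pairs of classes, computed across 3827 genes, which are not independent replicates.

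The matrices held 66021021 and 40869800 UMIs, of which 32656481 and 27014983 lay in listed cells. In replicate 1 375 cells and in replicate 2 901 cells had under 2000 UMIs and were left out of thinned values. Intervals are exact (Clopper-Pearson) at 95%. Levels are not corrected for transcript length, since 3′ UMIs are counted, and are compared only within a gene or a fixed sum.

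The members, the gene lists, the comparisons and the alternatives were chosen with earlier results of these data known. Named members were the 4 largest increases and 4 largest decreases among those called in a comparison with the same direction in both libraries, the 8 smallest and 4 largest p over classes among members whose mean log2 CPM was 5 or more, the most counted members, and a fixed set with Mrpl12, Mrps36 and the Mrps18 genes. Others were named after their values were seen. Alternatives were no library term, TMM over all genes, DESeq2 size factors, the DESeq2 1.42.0 test, no filter on low counts, thinned cells, fewer deep cells and each library alone. On simulated counts (10133 genes), 63% of changes of 0.5 and 100% of changes of 1 on the log2 scale were recovered in SEC-PRO against ISC. In GOBLET against GOBLET-PRE 8% and 56% were. Changes, up and down alike, were put only into genes averaging at least 5 on the log2 CPM scale. All genes had the same spread, and neither a library difference nor other class differences were simulated. Recovery for members of lower level, such as Mrps22 (average log2 CPM 4.70), was not simulated.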

Additional observations from a re-analysis of the deposited data

Results flagged for a closer look

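Barcodes outside the authors' list also held member transcripts. In replicate 1, 2857 unlisted barcodes with more than 600 genes gave 0.7046% of their UMIs to the members (exact 95% interval 0.701 to 0.7081%), against 0.5123% in listed cells and 0.5401% in barcodes with at most 50 UMIs. In replicate 2, 1286 such barcodes gave 0.664% (0.6572 to 0.6709%), against 0.5126% and 0.4306%. Both shares lay above those of the listed cells as a whole and below those of ISC. These barcodes have no class and entered no comparison.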

How the results depend on the processing

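The counts of members called depended on the library term, on depth and on the scaling. Without the library term they were 20 in SEC-PRO and 11 in ENTERO-PRO against ISC, 0 in GP, 19 in PANETH-PRE, 5 in EEC-PRE and 3 in TUFT against SEC-PRO, 0 in GOBLET-PRE against GP, 0 in PANETH against PANETH-PRE and 1 in the mean of EC and NON-EC against EEC-PRE. Beside the zeros, edgeR gave an unadjusted p under 0.05 to 7, 5 and 9 members, and DESeq2 called 1 in each of the 3. With cells thinned to 2000 UMIs they were 30, 8, 5 (GP), 5 (GOBLET-PRE), 7 (GOBLET) and 14 (PANETH-PRE). Thinning also gave 0 (PANETH, 4 unadjusted), 2 (EEC-PRE), 0 (mean of EC and NON-EC, 9 unadjusted) and 6 (TUFT). In SEC-PRO against ISC the count was 61 with TMM over all genes, 63 with DESeq2 size factors and 58 with the DESeq2 test. In ENTERO-PRO against ISC these settings gave 24, 29 and 26. The main fit called 49 and 24. TMM over all genes gave 4 in GP, 3 in GOBLET-PRE, 23 in GOBLET, 0 in PANETH (13 unadjusted), 13 in EEC-PRE and 5 in the mean of EC and NON-EC. DESeq2 size factors gave 5 in GOBLET-PRE, 1 in PANETH and 5 in the mean of EC and NON-EC, and the DESeq2 test 1 in GP, 1 in GOBLET-PRE, 1 in PANETH, 5 in the mean of EC and NON-EC and 8 in TUFT. No filter on low counts gave 1 in PANETH, and leaving out the 5% of cells with the most UMIs 0 (19 unadjusted). The cause of these shifts was not tested. The members' median in EEC-PRE against SEC-PRO, -0.029, became 0.0179 with thinned cells.

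Where no member rose, edgeR gave an unadjusted p under 0.05 to 0 higher members in SEC-PRO, ENTERO-PRO, GP and PANETH-PRE, 3 in GOBLET-PRE and 1 in TUFT, and DESeq2 called none higher, while 1 member rose in TUFT without the deepest cells. In PANETH, where none fell, 2 lower members had such a p and DESeq2 called none. No named value changed sign in any alternative. Of 41 named values, 18 lost the call without the library term, 22 with thinning, 12 with DESeq2, 6 with TMM over all genes, 3 with DESeq2 size factors, 4 without the filter and 6 without the deepest cells, and 18 moved by their SE or more without replicate 1 and 14 without replicate 2. Scaling moved the median of all genes in SEC-PRO against ISC to -0.08 (TMM over all genes), -0.11 (size factors) and -0.10 (DESeq2), in EEC-PRE to -0.13 and in the mean of EC and NON-EC to 0.05 and 0.04. Without replicate 1 and replicate 2 the members' median was -0.31 and -0.48 in SEC-PRO and -0.24 and -0.40 in ENTERO-PRO against ISC. These values come with no test, since 1 library leaves no residual degrees of freedom. Members with few UMIs, such as the 23 with at most 3 in GOBLET, are limited by depth.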

Other observations

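Members were also split into those whose number is that of a bacterial ribosomal protein and those with a higher number. In SEC-PRO against ISC 29 of 44 members with a bacterial number and 20 of 33 with a higher number fell. In PANETH-PRE against SEC-PRO 23 and 13 fell, and in TUFT against SEC-PRO 10 and 3. The difference between the 2 sets was not tested.

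Thinned to 2000 UMIs, 15.7% and 13.2% of PANETH cells held no member UMI at all. In ISC cells thinned alike the mean was 17.2 and 15.5 member UMIs, in SEC-PRO 13.4 and 12.5, and in GOBLET 2.73 and 4.13.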
